A study of Mus musculus with 12 samples.

Results

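Microglia are the resident macrophages of the brain, and 9 genes that mark them were followed in RNA-seq of mouse hippocampus: Cx3cr1, Csf1r, P2ry12, C1qa, C1qb, C1qc, Trem2, Tyrobp and Aif1. A gene was taken by its symbol, with the longest locus of that symbol in each of the 3 deposited tables used here and without loci typed as antisense, intronic, run-on or unannotated intergenic transcripts. All 9 were measured and tested in each table, among 13707, 13987 and 14178 named symbols in the siGSK3b, L803mts and ketamine tables. The 12 libraries formed 4 groups of 3, all from C57BL/6 mice. In the siGSK3b group 10 µg of an siRNA to GSK3beta was given into the nose, 5 µL to each nostril, on alternate days over 3 days. In the L803mts group 60 µg of L803mts, a peptide inhibitor of the kinase GSK3, was given by the same route and schedule. The ketamine group received 10 mg/kg of ketamine, a blocker of NMDA receptors, into the peritoneum, and tissue was taken at 24 h. The control group received intranasal vehicle, so ketamine and control libraries also differed in route, and the effect of the route cannot be told apart from that of the drug. Age, sex and whether each library came from a separate mouse are not given in the labels used here, so the p-values measure the spread between libraries, which may be partly technical.

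Microglia depend on signals through CSF1R for their survival, sense neurons through the fractalkine receptor CX3CR1, and move their processes toward purine nucleotides through P2RY12. They are a main source in the brain of C1q, the complex of A, B and C chains that starts the classical complement pathway and can tag synapses for removal. TREM2, a receptor for lipids and lipoproteins, signals through the adaptor TYROBP (also called DAP12) and the kinase SYK, while AIF1 (IBA1) is an actin-binding protein used to stain these cells.

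The promoters of 4 of the genes are shown because these genes had groups that did not overlap in one of the comparisons below. Csf1r also had such groups, in ketamine, but its promoter was not used here. The sequences are the RefSeq promoters of build GRCm38.p6, 250 bases before and 50 after the gene's start, written along the gene's own strand. Capitals mark GAGGAA, letters that can be bound by PU.1, the lineage factor of macrophages, or TTCCTC where the letters lie on the opposite strand. P2ry12 and Cx3cr1 hold neither, though both hold the shorter GGAA, and not every sequence that PU.1 can bind was searched. C1qb lies at chr4:136886151-136886450, C1qc at chr4:136892865-136893164, P2ry12 at chr3:59262936-59263235 and Cx3cr1 at chr9:120068247-120068546, all on the minus strand.
C1qb: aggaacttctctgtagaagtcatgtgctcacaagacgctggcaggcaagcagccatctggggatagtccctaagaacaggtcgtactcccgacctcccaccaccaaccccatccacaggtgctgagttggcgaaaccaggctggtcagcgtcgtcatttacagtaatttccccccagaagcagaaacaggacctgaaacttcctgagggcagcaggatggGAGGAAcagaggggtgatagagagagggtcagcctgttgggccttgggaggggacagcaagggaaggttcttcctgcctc
C1qc: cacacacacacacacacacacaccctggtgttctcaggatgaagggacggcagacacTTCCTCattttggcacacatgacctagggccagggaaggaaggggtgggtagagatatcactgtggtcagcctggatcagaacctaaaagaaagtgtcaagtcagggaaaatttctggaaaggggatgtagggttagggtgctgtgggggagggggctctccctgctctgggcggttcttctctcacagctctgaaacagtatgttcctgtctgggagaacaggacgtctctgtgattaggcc
P2ry12: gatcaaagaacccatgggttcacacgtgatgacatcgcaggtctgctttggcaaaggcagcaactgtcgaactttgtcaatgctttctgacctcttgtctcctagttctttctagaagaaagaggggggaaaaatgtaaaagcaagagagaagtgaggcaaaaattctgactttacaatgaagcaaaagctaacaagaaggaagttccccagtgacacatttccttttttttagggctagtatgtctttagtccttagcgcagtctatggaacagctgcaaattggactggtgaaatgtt
Cx3cr1: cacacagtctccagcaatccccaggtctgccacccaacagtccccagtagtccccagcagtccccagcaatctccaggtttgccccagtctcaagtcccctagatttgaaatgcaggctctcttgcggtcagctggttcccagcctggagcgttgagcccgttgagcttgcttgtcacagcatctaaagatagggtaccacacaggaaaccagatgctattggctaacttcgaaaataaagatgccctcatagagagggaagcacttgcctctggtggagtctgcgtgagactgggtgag

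RefSeq promoters were used for 6 of the 9 genes. GAGGAA was searched on both strands and was present in 4 of these 6, against 28.3% of the 32851 promoters in the table. It lay 30 bases upstream of the start in C1qb, 193 in C1qc, 40 in Trem2 and 7 in Aif1, on the gene's own strand only in C1qb. The composite element of PU.1 with an IRF factor, GGAA followed by any 2 bases and GAAA, was in 0 of the 6 and in 2.72% of all promoters, and TATAAA was in 0 of the 6 and in 13.6% of all. The 6 promoters held 1 to 6 CpG dinucleotides, against a median of 7 over all promoters (quartiles 3 and 20). These matches describe letters in a window and say nothing of binding in these cells.

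The values of the tables are FPKM, fragments scaled to transcript length and library size, and levels of different genes are set side by side only within a table. Limma was run on log2(FPKM + 1) over all tested loci of a table, a gene was called at a Benjamini-Hochberg adjusted p of at most 0.05, and differences below are treated minus control on that scale unless a deposited value is named. Median FPKM per library lay between 9.94 and 10.2 in the siGSK3b table, 9.48 and 9.78 in the L803mts table, and 8.66 and 8.99 in the ketamine table. Read depth cannot be recovered from these values. Gsk3b, the targeted gene, was listed at 18.4, 19.3 and 18.9 FPKM in the libraries labelled siGSK3b, against 17.96, 17.3 and 17.8 FPKM in control libraries. Its transcript was thus not lower in the libraries labelled siGSK3b; the difference was 0.09 (SE 0.09, limma adjusted p = 0.938, n = 3 each). Directions in that comparison rest on the labels.

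In control hippocampus P2ry12 was listed at 24.1 ± 0.7, 18.3 ± 0.7 and 18.03 ± 0.63 FPKM (SD, n = 3 each) in the siGSK3b, L803mts and ketamine tables. Csf1r, with 11.8 ± 1.3 FPKM in the siGSK3b table, and C1qb, with 11.1 ± 1.1 FPKM there, came next in that table, below P2ry12 beyond the spread but not apart from each other. Cx3cr1 (9.25 ± 0.56), Aif1 (8.86 ± 0.81), Tyrobp (8.62 ± 2.99), C1qa (7.66 ± 1.34) and C1qc (7.10 ± 1.00) followed, each within the spread of the next in that order, and Trem2 was lowest at 1.59 ± 0.71 FPKM. In the L803mts and ketamine tables Trem2 was again lowest and P2ry12 above all but Tyrobp of the ketamine table, whose control mean there was 28.7 ± 22.5 FPKM. The tissue also held neuron, astrocyte and oligodendrocyte markers, the 9 measured neuron markers summing to 2053 to 2635 FPKM in control libraries of the siGSK3b table. Of 36 other homeostatic and lineage genes of microglia, 31 were measured in each table, though not the same 31. No measured gene of this list was at 0 in all 6 libraries of a table.

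**Figure D1:**
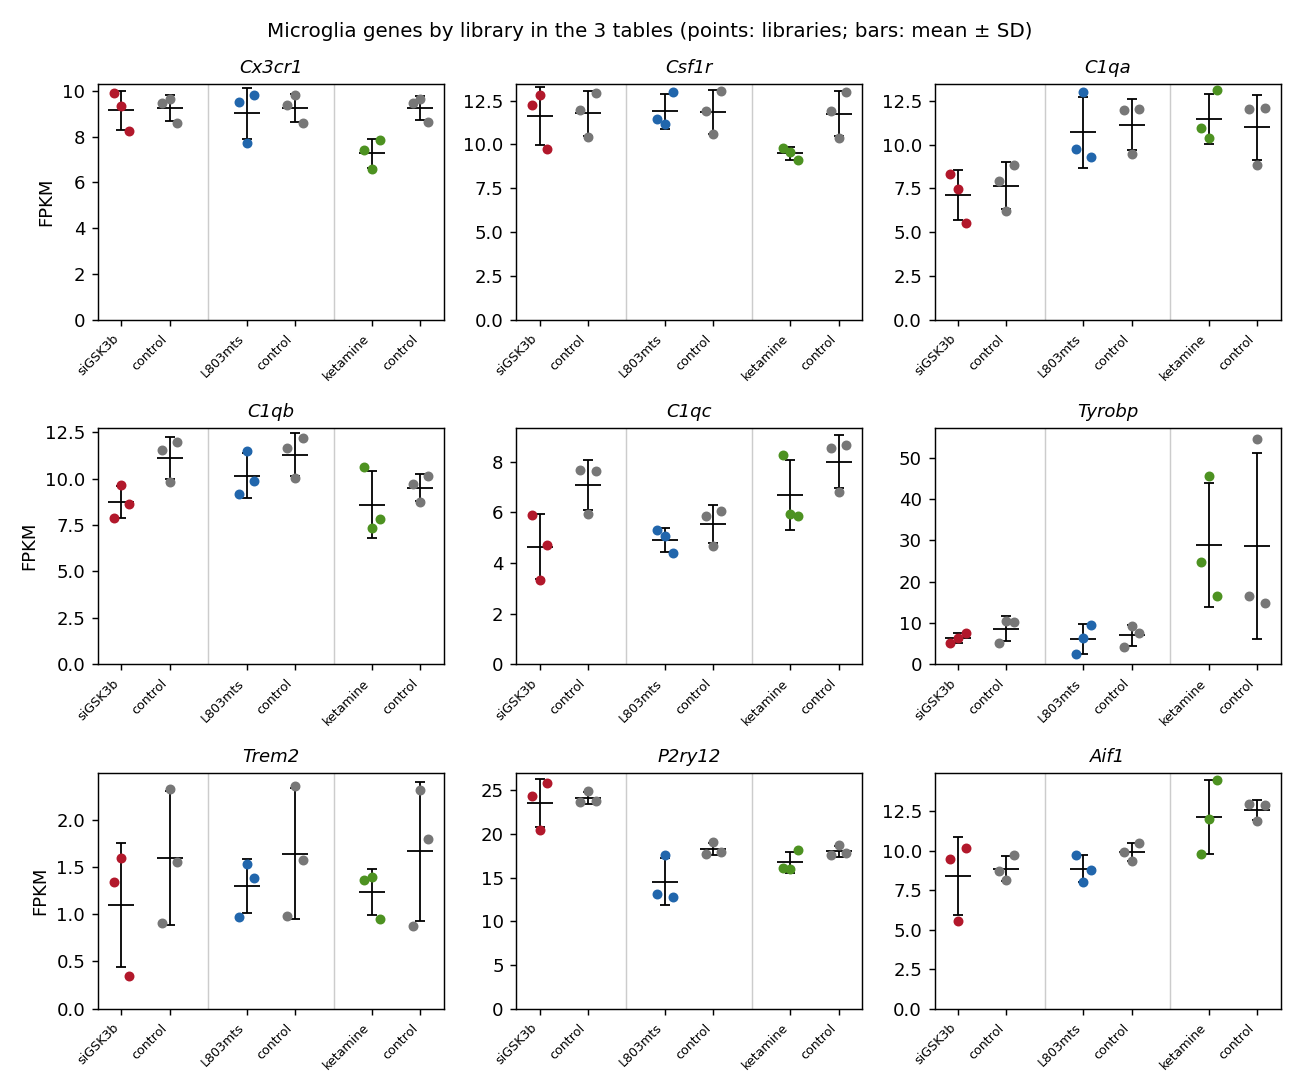
FPKM of each of the 9 microglia genes (vertical axis, linear, from 0) in every library, with each treated group left of the control group of its own table; points are libraries and bars the mean ± SD of 3 libraries. The treated points lie below all control points for C1qb and C1qc in the siGSK3b table, P2ry12 in the L803mts table, and Cx3cr1 and Csf1r in the ketamine table, while Tyrobp is spread from 15.0 to 54.6 FPKM within the controls of the ketamine table.

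No microglia gene was called in any comparison. By limma 0 of 9 were called in libraries labelled siGSK3b, where 0.00612% of 16351 loci were called, 0 of 9 in L803mts, where 0% of 17074 were called, and 0 of 9 in ketamine, where 0.0114% of 17545 were called. The FDR of the authors' deposited tables also called 0 of 9 in each comparison, beside 0.508%, 0.65% and 0.439% of all loci. At an unadjusted limma p under 0.05, 2, 0 and 2 of the 9 were lower in the siGSK3b, L803mts and ketamine libraries, and the same held for 2.84%, 2.57% and 3.16% of all tested loci. Treated groups lying wholly below control were seen for 2, 1 and 2 of the 9 genes, beside 4.84%, 6.67% and 6.19% of all tested loci. The fitted difference was below 0 for 9, 8 and 7 of the 9, with medians of -0.10, -0.14 and -0.15, whereas 48.1%, 54.1% and 53.1% of all loci were below 0, with medians of 0.01, -0.02 and -0.01. Lists outside the 9 leaned either way. Oligodendrocyte markers were below 0 for 8, 8 and 7 of 10, and astrocyte markers for 9, 5 and 7 of 10. Neuron markers were below 0 for 5, 5 and 8 of 9 tested, in siGSK3b and L803mts near the share of all loci. Choroid plexus markers were below 0 for 0 of 13, 0 of 14 and 0 of 14 tested. Complement genes outside C1q were below 0 for 3 of 13, 4 of 13 and 4 of 14, and meningeal fibroblast markers for 6 of 12, 1 of 12 and 1 of 10. The 3 comparisons share the same control libraries, and the 9 genes mark the same cells, so neither the genes nor the comparisons are independent. In whole tissue, fewer microglia and less of an RNA per microglial cell cannot be told apart.

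**Figure D2:**
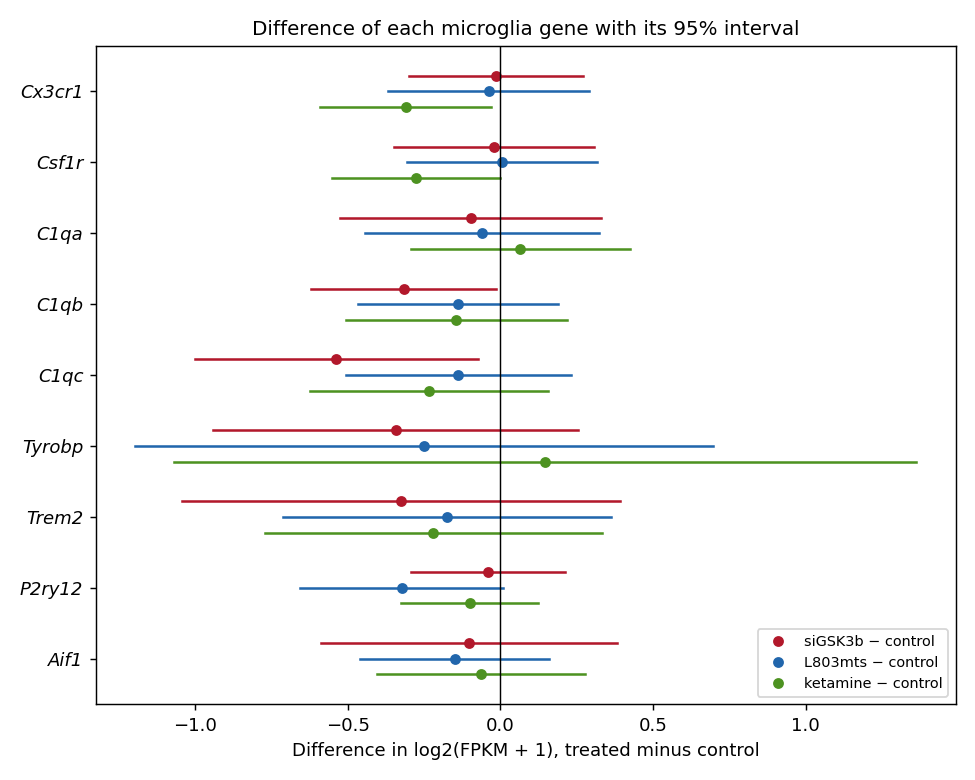
Difference in log2(FPKM + 1), treated minus control, for each microglia gene with its 95% interval from limma (points and lines; n = 3 libraries per group). The intervals of C1qb and C1qc in siGSK3b and of Cx3cr1 and Csf1r in ketamine end below 0 before adjustment for multiple testing, and those of Tyrobp span up to 1.22 to either side.

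In the libraries labelled siGSK3b, the complement chains C1qc and C1qb were the 2 genes below control in every library, without passing the test, and the receptors Cx3cr1, Csf1r and P2ry12 stayed close to control levels. C1qc, the C chain of C1q, was listed at 5.89, 3.33 and 4.71 FPKM in siGSK3b libraries, against 7.68, 5.95 and 7.66 FPKM in control libraries. The highest siGSK3b library was just below the lowest control library. The difference was -0.54 (SE 0.20, 95% interval -1.001 to -0.08, limma adjusted p = 0.848), and the authors' deposited table gives a log2 fold change of -0.61 with an FDR of 0.231, the lowest FDR of any microglia gene in the 3 tables. C1qb, the B chain, had 7.90, 9.64 and 8.65 FPKM in siGSK3b libraries, against 11.5, 9.84 and 11.997 FPKM in control libraries. Again the groups did not overlap, by a margin of 9.64 against 9.84 FPKM, and the difference was -0.32 (SE 0.13, limma adjusted p = 0.848; deposited FDR 0.900). C1qa, the A chain, overlapped control, with 8.34, 7.47 and 5.53 FPKM in siGSK3b libraries and 7.95, 6.20 and 8.82 FPKM in control libraries (difference -0.10, SE 0.18, limma adjusted p = 0.973). The 3 chains are encoded next to each other, on NCBIM37 chromosome 4 at 136436045 to 136438354 (C1qb), 136445273 to 136448478 (C1qc) and 136451846 to 136454783 (C1qa) in this table. Summed over the 3 chains, the siGSK3b libraries had 18.9 to 22.1 FPKM and the control libraries 21.98 to 28.5 FPKM, which overlapped.

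Trem2 and its adaptor Tyrobp varied too widely between libraries to be placed. Trem2 was listed at 1.34, 1.59 and 0.349 FPKM in siGSK3b libraries, against 0.903, 2.33 and 1.55 FPKM in control libraries, and both groups spanned more than the distance between their means. Tyrobp had 5.14, 6.40 and 7.57 FPKM in siGSK3b libraries, against 5.17, 10.5 and 10.2 FPKM in control libraries, with control replicate 1 at the level of the siGSK3b libraries. The differences were -0.33 (SE 0.31) for Trem2 and -0.34 (SE 0.26) for Tyrobp, and neither passed the test (limma adjusted p = 0.938 and 0.932).

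The 3 receptors of homeostatic microglia showed small differences from control with intervals that reach some 0.3 to either side. Cx3cr1 differed by -0.01 (95% interval -0.30 to 0.27), Csf1r by -0.02 (-0.35 to 0.31) and P2ry12 by -0.04 (-0.29 to 0.21), all with a limma adjusted p of at least 0.984. P2ry12, the purinergic receptor, was nonetheless more even in control, at 23.7 to 24.9 FPKM, than in siGSK3b libraries, at 20.5 to 25.8 FPKM. Aif1 was listed at 9.47, 5.57 and 10.1 FPKM in siGSK3b libraries, against 8.74, 8.11 and 9.73 FPKM in control libraries. Only siGSK3b replicate 2 was low for Aif1, and the difference was -0.10 (SE 0.21, limma adjusted p = 0.976).

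In L803mts libraries, P2ry12 was the one gene of the 9 whose group lay wholly below control, without passing the test, and the receptors Csf1r and Cx3cr1 overlapped control. P2ry12 was listed at 13.2, 17.6 and 12.8 FPKM in L803mts libraries, against 17.7, 19.1 and 17.99 FPKM in control libraries. L803mts replicate 2 lay just under the lowest control library and the other 2 lay well below. The difference was -0.32 (SE 0.14, 95% interval -0.66 to 0.01, limma adjusted p = 0.757), and the authors' deposited FDR was 0.910. Csf1r, the receptor for CSF1 and IL-34, differed by 0.01 (95% interval -0.31 to 0.32), and Cx3cr1 by -0.04 (95% interval -0.37 to 0.29).

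All 3 C1q chains overlapped control in L803mts libraries. C1qb had 9.15, 11.5 and 9.87 FPKM in L803mts libraries, against 11.7, 10.0 and 12.2 FPKM in control libraries. C1qc had 5.30, 5.08 and 4.40 FPKM in L803mts libraries, against 5.86, 4.68 and 6.07 FPKM in control libraries. Both differed by -0.14 (SE 0.14 for C1qb and 0.16 for C1qc), and C1qa by -0.06 (SE 0.17). Whether C1qc differs between the siGSK3b and L803mts groups was not tested here. Aif1 ranged from 8.02 to 9.71 FPKM in L803mts libraries, against 9.31 to 10.5 FPKM in control libraries, a difference of -0.15 (SE 0.14). Trem2 ranged from 0.975 to 1.53 FPKM in L803mts libraries, against 0.979 to 2.36 FPKM in control libraries. Tyrobp was listed at 2.39, 6.43 and 9.53 FPKM in L803mts libraries, against 4.09, 9.29 and 7.53 FPKM in control libraries, a 95% interval of -1.20 to 0.70. None of these 6 genes had a limma adjusted p below 0.790.

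In ketamine libraries, the receptors Cx3cr1 and Csf1r lay below control in every library, again without passing the test, whereas P2ry12 overlapped. Cx3cr1 was listed at 7.41, 6.58 and 7.84 FPKM in ketamine libraries, against 9.47, 9.63 and 8.65 FPKM in control libraries. Csf1r was listed at 9.81, 9.58 and 9.10 FPKM in ketamine libraries, against 11.9, 10.4 and 12.97 FPKM in control libraries. For both genes the highest ketamine library was under the lowest control library, with 7.84 against 8.65 FPKM for Cx3cr1 and 9.81 against 10.4 FPKM for Csf1r. The difference was -0.31 (SE 0.12, 95% interval -0.59 to -0.03, limma adjusted p = 0.793) for Cx3cr1 and -0.28 (SE 0.12, 95% interval -0.55 to -0.0005, limma adjusted p = 0.814) for Csf1r. The authors' deposited FDR was 0.990 for Cx3cr1 and 0.913 for Csf1r. P2ry12 had 16.1, 15.99 and 18.2 FPKM in ketamine libraries, against 17.6, 18.8 and 17.8 FPKM in control libraries (difference -0.10, SE 0.10, limma adjusted p = 0.918). Its ketamine replicate 3 lay within the control range and the other 2 ketamine libraries below it.

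C1qa was the C1q chain with a value above control in ketamine libraries, at 10.97, 10.4 and 13.1 FPKM, against 12.03, 8.84 and 12.1 FPKM in control libraries. The difference was 0.07 (95% interval -0.29 to 0.42). C1qb had 10.6, 7.32 and 7.85 FPKM in ketamine libraries, against 9.69, 8.73 and 10.1 FPKM in control libraries, and C1qc 8.29, 5.95 and 5.85 FPKM in ketamine libraries, against 8.54, 6.80 and 8.67 FPKM in control libraries. Ketamine replicate 1 was above the control range for C1qb and within it for C1qc, while replicates 2 and 3 were under it for both chains. The differences of -0.15 (SE 0.16) and -0.23 (SE 0.17) did not pass the test (limma adjusted p = 0.927 and 0.886). Trem2 ranged from 0.950 to 1.39 FPKM in ketamine libraries, against 0.874 to 2.32 FPKM in control libraries, a difference of -0.22 (SE 0.24). Aif1 ranged from 9.80 to 14.5 FPKM in ketamine libraries, against 11.8 to 12.9 FPKM in control libraries, a difference of -0.06 (SE 0.15). Tyrobp was listed at 24.7, 45.6 and 16.5 FPKM in ketamine libraries, against 16.4, 54.6 and 15.0 FPKM in control libraries. Replicate 2 was high in both groups, and the 95% interval of its difference, -1.07 to 1.36, covers a halving as well as a doubling of FPKM + 1.

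Summed over the 9 genes, libraries labelled siGSK3b had 76.6 to 84.6 FPKM, against 87.2 to 95.2 FPKM in control libraries, which did not overlap. L803mts libraries had 71.4 to 82.0 FPKM, against 83.4 to 89.6 FPKM in control libraries, again without overlap. Ketamine libraries had 93.9 to 114.8 FPKM, against 99.4 to 131.9 FPKM in control libraries, which overlapped. Such sums are weighted to the most abundant genes, such as P2ry12. In the ketamine table they are also weighted to Tyrobp, with 45.6 FPKM in ketamine replicate 2 and 54.6 FPKM in control replicate 2. These were the libraries with the highest sums of their groups, so the ketamine ranges depend on that gene. Sums over 31 further microglia genes, described below, overlapped control in siGSK3b (770 to 926 against 862 to 878 FPKM) and L803mts (629 to 696 against 688 to 730 FPKM). In ketamine the sums over the further genes lay wholly below control (487 to 531 against 534 to 548 FPKM). In the siGSK3b table most of that sum came from Cst3, at 522 to 549 FPKM in control libraries. No test was made of these sums, because the genes were brought together with earlier results of these data known.

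The other microglia genes had medians nearer to 0 than the 9, a difference that was not tested. Each table measured 31 further homeostatic and lineage genes, but not the same 31. Fcgr3 was missing from the siGSK3b table, Tmem119 from the L803mts table and Ctss from the ketamine table. Counts, medians and sums therefore cover partly different genes. Of the 31, 20, 23 and 16 lay below control in siGSK3b, L803mts and ketamine libraries, with median differences of -0.09, -0.10 and -0.01. Limma called 0 of the 31 in each comparison, the deposited FDR called 0 as well, and at an unadjusted limma p under 0.05 there were 1 higher and 0 lower, 1 higher and 3 lower, and 0 higher and 2 lower. Over all tested loci, 2.99%, 3.61% and 2.98% were higher at that p. Cst3, which encodes the protease inhibitor cystatin C and is also made by astrocytes, was the most abundant of them, at 463 to 585 FPKM in siGSK3b libraries and 522 to 549 FPKM in control libraries. Ctss, which encodes the lysosomal protease cathepsin S, had 69.1 to 82.3 FPKM in L803mts libraries, all below the 83.0 to 93.9 FPKM of control libraries (difference -0.19, SE 0.11, limma adjusted p = 0.757). In the siGSK3b table its groups overlapped, at 71.6 to 88.2 FPKM in siGSK3b libraries and 83.1 to 93.3 FPKM in control libraries.

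Ligands and signalling partners of the receptors had medians near 0 and no calls, though single genes differed more. Limma and the deposited FDR called 0 of 12, 0 of 12 and 0 of 13 tested genes in siGSK3b, L803mts and ketamine, with 0 at an unadjusted limma p under 0.05 in each, and the medians were -0.04, -0.03 and 0.04. Apoe, the lipoprotein that TREM2 can bind and that astrocytes also make, had 528, 635 and 535 FPKM in siGSK3b libraries, against 549, 824 and 743 FPKM in control libraries (difference -0.30, SE 0.16, limma adjusted p = 0.887). Syk, the kinase recruited by TYROBP, was listed at 47.1 to 49.9 FPKM in siGSK3b libraries, all above the 42.0 to 45.8 FPKM of control libraries. The difference was 0.13 (SE 0.08, limma adjusted p = 0.915). The share of all loci lying wholly above control was not counted. The authors' deposited log2 fold change of Syk was 0.134 in siGSK3b, but -0.191 in L803mts and -0.122 in ketamine, the opposite direction.

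Complement genes outside C1q were more often above control than below. Of 13, 13 and 14 tested, 3, 4 and 4 lay below control in siGSK3b, L803mts and ketamine libraries, and the medians were 0.08, 0.11 and 0.10. Limma called 0 in each, with 0, 3 and 1 higher and 0 lower at an unadjusted limma p under 0.05. The authors' deposited table called Cd59a, a membrane inhibitor of the terminal complex, higher in siGSK3b (FDR 0.0126), where the libraries had 9.96, 12.3 and 7.59 FPKM, against 10.8, 2.75 and 2.55 FPKM in control libraries. Control replicate 1 was as high as the siGSK3b libraries. Limma gave a difference of 1.00 (SE 0.44, adjusted p = 0.861) for Cd59a.

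Genes that rise in activated microglia were called in no comparison. Limma and the deposited FDR called 0 of 14, 0 of 15 and 0 of 15 tested, with 2, 1 and 1 higher and 0 lower at an unadjusted limma p under 0.05, and medians of 0.03, 0.08 and 0.01. Ctsb, which encodes the lysosomal protease cathepsin B, had 77.5 to 82.8 FPKM in siGSK3b libraries and 73.3 to 86.1 FPKM in control libraries. Of 30 genes on this list, 15 were measured in each table, and cytokine genes missing from a table were not analysed here.

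**Figure D3:**
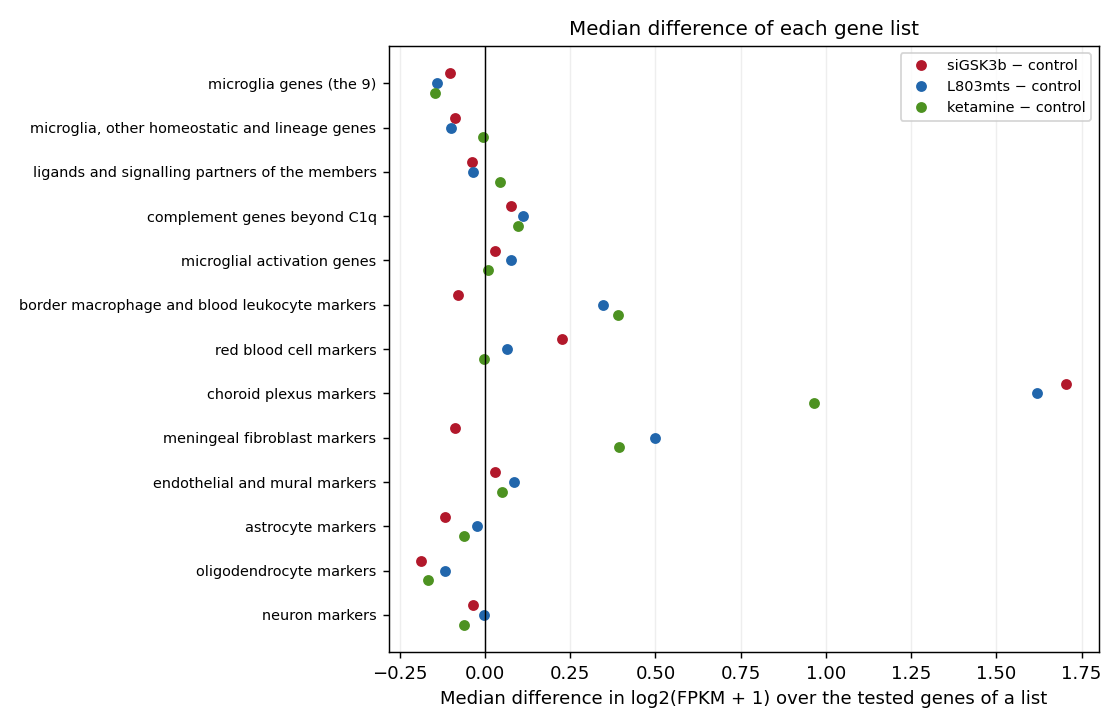
Median difference in log2(FPKM + 1), treated minus control, over the tested genes of each list, one point per comparison. The 9 genes, the further microglia genes and the activation genes lie between -0.15 and 0.08, while the choroid plexus markers lie at 1.71, 1.62 and 0.97 in siGSK3b, L803mts and ketamine.

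Markers of other cell types moved beside these genes, and their part in the values above was not tested. Choroid plexus markers, 14 measured in each table, summed to 4224 to 6165 FPKM in siGSK3b libraries, against 4706, 356 and 120 FPKM in control replicates 1, 2 and 3. In the L803mts table the sum was 1951 to 3248 FPKM in L803mts libraries, against 3214, 271 and 102 FPKM in control replicates 1, 2 and 3, and for ketamine it was 3266, 2889 and 489 FPKM in ketamine replicates 1, 2 and 3, against 3642, 326 and 144 FPKM in the same controls. The authors' deposited tables called 10, 8 and 1 of these markers higher, and limma called 0. No marker on the list was at 0 throughout a table. Control replicate 1 stood apart from the other controls by this measure, while its summed level of the 9 microglia genes in the siGSK3b table was 87.2 FPKM, beside 87.9 and 95.2 FPKM in replicates 2 and 3. Without control replicate 1, the differences were -0.48 for C1qc and -0.29 for C1qb in siGSK3b, -0.34 for P2ry12 in L803mts, and -0.29 for Cx3cr1 and -0.26 for Csf1r in ketamine, with limma adjusted p from 0.637 to 0.880. Tyrobp and Trem2 moved more without that library. In siGSK3b their differences became -0.64 for Tyrobp (limma adjusted p = 0.386), against -0.34 with all libraries, and -0.53 for Trem2, against -0.33. In L803mts they became -0.54 for Tyrobp, against -0.25 with all libraries, and -0.37 for Trem2, against -0.18. In ketamine they became -0.11 for Tyrobp, against 0.15 with all libraries, and -0.45 for Trem2, against -0.22, and none of these passed the test.

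Border macrophages and blood leukocytes share several of the 9 genes with microglia. Of 20 of their markers, 6, 8 and 11 were measured, and these summed to 13.6 to 18.1 FPKM in siGSK3b libraries against 13.02 to 24.7 FPKM in control libraries, 18.9 to 26.1 FPKM in L803mts libraries against 12.8 to 20.8 FPKM in control libraries, and 17.965 to 35.3 FPKM in ketamine libraries against 15.4 to 24.8 FPKM in control libraries. Of 5, 7 and 9 tested, 4, 0 and 1 lay below control in siGSK3b, L803mts and ketamine, with median differences of -0.08, 0.35 and 0.39. Limma called 0 of them in each comparison, with 0, 2 and 1 higher and 1, 0 and 0 lower at an unadjusted limma p under 0.05. No measured marker of the list was at 0 in all 6 libraries of a table, and the part of these cells in the microglia values was not tested. H2-Ab1, an MHC class II chain, was called higher in L803mts by the authors' deposited table (FDR 0.0119), with 1.13, 0.948 and 0.328 FPKM in L803mts libraries, whereas it was listed at 0 in all 3 control libraries. Mrc1, the mannose receptor of border macrophages, had 14.6, 14.2 and 9.63 FPKM in L803mts libraries, against 11.7, 8.9996 and 7.89 FPKM in control libraries, which overlapped.

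Oligodendrocyte markers, another glial group, lay below control for 8, 8 and 7 of 10, with medians of -0.19, -0.12 and -0.17. In the ketamine table they summed to 467 to 535 FPKM in ketamine libraries, against 626 to 638 FPKM in control libraries. The sums overlapped control in siGSK3b (1129 to 1296 against 1259 to 1464 FPKM) and in L803mts (1215 to 1347 against 1260 to 1484 FPKM). Mobp, a myelin protein gene, was called lower in siGSK3b by the authors' deposited table (FDR 0.0224), at 57.3 to 59.0 FPKM in siGSK3b libraries, against 75.3 to 82.7 FPKM in control libraries. Astrocyte and neuron markers had 0 calls by either test, with medians from -0.12 to -0.001. Of 12 meningeal fibroblast markers, the deposited tables called 2 higher and 1 lower in siGSK3b, 3 higher in L803mts and 1 higher in ketamine, and limma called 0. The part of these glial and neuronal levels in the microglia values was not tested.

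The same 3 control libraries are listed in each of the 3 tables, with values that differed by gene and table. For Csf1r and Cx3cr1 a control library differed by at most 1.02-fold between tables. For 8 of the 9 genes the highest table was 1.00 to 1.52 times the lowest, with C1qa at 1.37 to 1.52 times and P2ry12 at 1.33 to 1.35 times. Tyrobp differed by 1.99 to 5.88 times. Its control libraries were listed at 5.17, 10.5 and 10.2 FPKM in the siGSK3b table, 4.09, 9.29 and 7.53 FPKM in the L803mts table, and 16.4, 54.6 and 15.0 FPKM in the ketamine table. The locus limits were identical in the L803mts and ketamine tables, at NCBIM37 chromosome 7, 31198774 to 31200700, and the cause of the gap between those 2 tables was not tested. Levels were therefore compared only within a table.

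**Figure D4:**
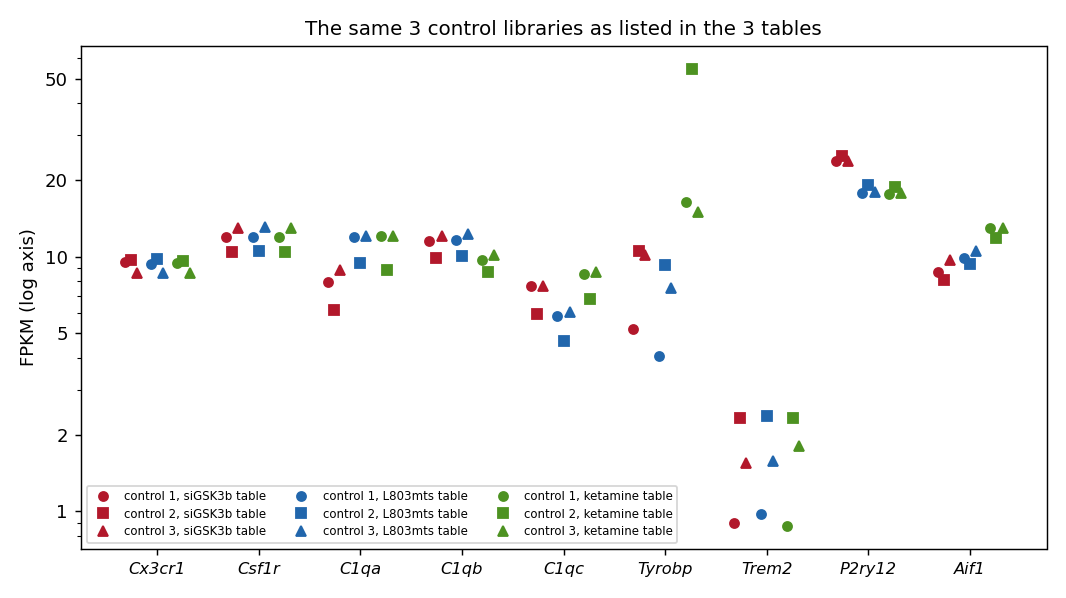
FPKM (logarithmic axis) of the 9 microglia genes in the same 3 control libraries as listed in the siGSK3b, L803mts and ketamine tables; colour gives the table and shape the library. Points of one shape coincide for Csf1r and Cx3cr1 and spread by 1.99 to 5.88 times for Tyrobp.

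Loci also differed from the genes they are named for. The Cx3cr1 locus spans 647, 656 and 647 bases, on NCBIM37 chromosome 9 from 119958712 to 119959358 in the siGSK3b table, against a RefSeq gene span of 19614 bases, so its values come from a small stretch of the gene. The authors' deposited group values for Cx3cr1 were 16.9 FPKM for L803mts against 17.3 FPKM for control, and 13.7 FPKM for ketamine against 17.1 FPKM for control, higher than the library values, and were not used. The P2ry12 locus spans 261223, 269896 and 269857 bases, on NCBIM37 chromosome 3 from 58809979 to 59071201 in the siGSK3b table, while the RefSeq gene spans 46715 bases and overlaps Med12l, next to the related receptor genes P2ry13 and P2ry14. In the ketamine table Csf1r, at NCBIM37 chromosome 18, 61265535 to 61336330, has the same locus limits as its neighbour Hmgxb3. No other listed locus overlaps that of P2ry12, but the locus is longer than the gene, and the values of P2ry12 are uncertain to that extent. Those of Csf1r in ketamine could be affected if the authors' counting split reads with Hmgxb3, which was not tested. Only the ketamine table has that overlap, and for Csf1r the same control libraries differed by at most 1.02-fold between tables. The remaining loci in the siGSK3b table are Trem2 on chromosome 17 from 48485770 to 48491256, Aif1 on chromosome 17 from 35307798 to 35309715, and Tyrobp on chromosome 7 from 31198769 to 31202586.

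The control libraries ranked alike within groups of genes. Control replicate 2 was lowest in all 3 tables for C1qa, C1qb, C1qc, Csf1r and Aif1, and highest in all 3 for Trem2, Tyrobp, P2ry12 and Cx3cr1. The coefficient of variation over the 3 controls was 2.8% to 4.0% for P2ry12, 42.3% to 44.7% for Trem2 and 34.7% to 78.5% for Tyrobp. Since the tables list the same 3 libraries, this is one observation and not 3.

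Genes whose pattern was most like the mean log2 level of the 9 were ranked among 12026 genes by the lowest of 3 Pearson coefficients, each over the 6 libraries of a table. Psrc1 was first, with coefficients of 0.90, 0.91 and 0.97 in the siGSK3b, L803mts and ketamine tables, followed by Gm14256 (lowest 0.77), B4galnt1, Duox1 and Mipep (each 0.74), Alg6 and Mad2l2 (each 0.73), Wnt9a (0.72), and Rpl7a and Ctnnbip1 (each 0.71). None of the 10 is on the lists of microglia or other cell type markers. The points share 3 control libraries across tables, and the coefficients are a description with no test. For the members themselves the lowest coefficient ran from -0.75 for C1qa, in the ketamine table, to 0.59 for Trem2, so not every gene followed the mean in every table. In the siGSK3b table all were positive, from 0.16 for Cx3cr1 to 0.79 for C1qc. The mean includes the gene itself and the widely spread Tyrobp and Trem2, and their part in these coefficients was not tested.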

How the data were processed

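Per the labels' protocols, poly(A)-selected, strand-specific libraries were made from hippocampal RNA. TopHat2 2.0.9, Cufflinks, Cuffdiff and the builds GRCh37 and NCBIM37 are named in the submitters' processing notes; chromosome 7 coordinates of the tables run to 152125614, past the last GRCm38 gene end at 145324086, so loci are given on NCBIM37. Each of the 3 deposited tables used here sets 1 treatment against the same controls and, per the file headers, holds FPKM for libraries and groups beside p-value, FDR and log2 fold change. Counts and depth are unknown: of 33, 35 and 40 low loci searched for steps of 1 read, 3.03%, 8.57% and 2.5% fell in the fullest bin. Limma 3.58.1 (R 4.3.3, intensity trend) was fitted within a table to log2(FPKM + 1), which understates changes of low genes, over loci with a deposited p-value below 1, with adjusted p over all of them, and was tested on simulated data. Replicates share numbers, but same-numbered libraries did not deviate together in every pair, so the main test has no block. With 3 against 3 libraries no permutation p can fall below 0.1. The 9 genes and the lists were chosen with earlier results of these data known. Text names the 9 genes and, from each list discussed, called genes or the 2 of highest control level; lists and genes with calls outside the discussion are given as counts. One called list gene is not reported here. Alternatives were the deposited test, pseudocount, filter, scaling, block, variance model and left-out libraries. Promoter letters were read from RefSeq GRCm38.p6, and genes were matched by symbol.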

Additional observations from a re-analysis of the deposited data

How the results depend on the processing

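No microglia gene passed the threshold under any alternative; the lowest adjusted p over all alternatives was 0.231 in siGSK3b (the authors' deposited test of C1qc), 0.530 in L803mts and 0.604 in ketamine. Over 270 values of the 9 genes under other pseudocounts, filters, scalings, the replicate block, another variance model and the deposited test, 0 changed direction. Of 162 values with 1 library left out, 22 changed direction, in genes close to control or widely spread. The ranges for these genes in siGSK3b were -0.069 to 0.052 for Cx3cr1, -0.10 to 0.090 for Csf1r, -0.22 to 0.051 for C1qa, -0.11 to 0.052 for P2ry12 and -0.25 to 0.14 for Aif1. In L803mts they were -0.097 to 0.057 for Cx3cr1, -0.069 to 0.072 for Csf1r, -0.20 to 0.024 for C1qa, -0.61 to 0.21 for Tyrobp and -0.37 to 0.016 for Trem2, and in ketamine -0.071 to 0.13 for C1qa, -0.23 to 0.73 for Tyrobp and -0.19 to 0.067 for Aif1. The number of the 9 below control ran from 6 to 9 in siGSK3b, 7 to 8 in L803mts and 6 to 8 in ketamine. Over all loci, the 1 limma call in siGSK3b became 2 with median-centred libraries, 2 with the replicate block and 83 in the deposited test, and 0 to 36 with 1 library left out. The 0 calls in L803mts became 111 in the deposited test and 0 to 36 with 1 library left out. The 2 calls in ketamine became 1 with the replicate block, 1 with a robust fit without the intensity trend and 77 in the deposited test, and 1 to 13 with 1 library left out. The 36 calls in siGSK3b and in L803mts came without control replicate 1, and the 13 in ketamine without control replicate 2. The cause of these shifts was not tested. The replicate block changed no call of the 9 genes; same-numbered libraries correlated at 0.008, -0.05 and -0.16 in siGSK3b, 0.02, 0.06 and 0.19 in L803mts, and 0.11, 0.04 and 0.14 in ketamine. The 95% intervals reached a median of 0.43, 0.33 and 0.36 to either side in siGSK3b, L803mts and ketamine, before any adjustment for multiple testing.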

Other observations

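Ly86, which encodes MD-1, the partner of the receptor RP105 on myeloid and B cells, lay below control in every treated library of all 3 tables. It was singled out after its values were seen. It had 4.94, 5.50 and 3.96 FPKM in siGSK3b libraries, against 6.22, 6.59 and 6.07 FPKM in control libraries. In L803mts libraries it had 5.04, 4.70 and 4.86 FPKM, against 6.56, 7.12 and 6.57 FPKM in control libraries, and in ketamine libraries 3.56, 5.23 and 4.15 FPKM, against 6.26, 6.17 and 6.16 FPKM in control libraries. The differences were -0.34 (SE 0.15), -0.40 (SE 0.14) and -0.45 (SE 0.15), none called by limma (adjusted p = 0.861, 0.757 and 0.759). The 3 comparisons share the control libraries. Itgam, which encodes the integrin CD11b, had 13.8, 12.4 and 12.5 FPKM in siGSK3b libraries, against 7.97, 7.11 and 10.95 FPKM in control libraries, the opposite direction to the C1q chains (difference 0.54, SE 0.16, limma adjusted p = 0.785), and it was also chosen after its values were seen.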
